A study of Mus musculus with 31 samples.

Results

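The genes described are those of the proteasome and its activators and assembly factors, measured in whole retina from mice with genetic or chemically induced insulin deficiency. They were taken as every probe whose annotated symbol starts with Psma, Psmb, Psmc, Psmd, Psme, Psmf or Psmg and whose deposited detection p-value was under 0.05 on at least 6 arrays. Of 67 such probes for 45 genes on the array, 61 probes for 43 genes passed, out of 16743 probes and 11172 genes that passed in all.

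All mice were C57BL/6J, and retinal RNA was measured on 31 Illumina BeadChip arrays of 1 colour. The WT group (8 arrays) carried the genotype Ins2/Ins2, and the Ins2Akita group (9 arrays) carried Ins2Akita/Ins2, in which 1 allele of an insulin gene encodes a misfolding protein; loss of beta-cell function follows. The Control group (8 arrays) was untreated, and the STZ group (6 arrays) had received streptozotocin, a compound toxic to beta cells. Hyperglycaemia had lasted 3 months in the Ins2Akita and STZ groups. Ages, sexes, the streptozotocin dose and whether each array held a separate mouse are not stated in the labels, so the p-values reflect the spread among these arrays and that spread may be technical. In RNA of a whole tissue, fewer cells of a type and less RNA per cell cannot be told apart.

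The proteasome is the protease that degrades proteins tagged with ubiquitin. Its 20S core is a barrel of alpha and beta rings in which Psmb5, Psmb6 and Psmb7 encode the catalytic sites, and the 19S particle binds, deubiquitinates, unfolds and feeds the substrate. Under interferon signalling Psmb8, Psmb9 and Psmb10 take the places of Psmb5, Psmb6 and Psmb7 and form the immunoproteasome, and the activator PA28, made from Psme1 and Psme2, can cap the core; both are known for their part in making peptides for antigen presentation. When proteasome activity falls short, the transcription factor Nfe2l1 is known to raise the subunit genes through antioxidant response elements in their promoters.

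Between 14581 and 16460 of 25697 probes were detected per array, 14581 to 15469 in WT, 15395 to 16460 in Ins2Akita, 15226 to 15650 in Control and 15074 to 15816 in STZ. The 4 BeadChips matched the 4 groups apart from 1 array, Ins2Akita replicate 9, which was run with the STZ arrays, so BeadChip and group can hardly be told apart. Of 12 rod, cone and bipolar cell markers 11 were measured, and their summed level ran from 16.34 to 16.69 on the log2 scale over all 31 arrays. Single retina markers did pass: Prkca was higher and Gnat2 and Pde6b lower in Ins2Akita against WT, and Gnat1, Grm6 and Prkca were higher and Gnat2 and Pde6a lower in Control against WT. Lens crystallins (12 of 14 measured) varied far more, from 8.33 to 17.49, and retinal pigment epithelium markers (11 of 12 measured) from 12.20 to 15.12. Their medians by comparison are given beside the results.

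The promoters below were read from RefSeq windows of GRCm38.p6 and are shown because they belong to the genes the results turn on: the immunoproteasome and PA28 genes Psmb8, Psmb9 and Psme1, the constitutive Psmb6 that Psmb9 replaces, and the 19S genes Psmd8, Psmd11 and Psmd12. Each runs 5′ to 3′ from 250 bases before the annotated start to the base 30 bases on. Capitals mark a match, on either strand, to TGACNNNGC or TGAGNNNGC (the core of the antioxidant response element), GAAANNGAA (interferon-stimulated response element), TTCNNNGAA (Stat site) or CCAAT.
Psmb8 (chr17:34197945-34198224, plus strand): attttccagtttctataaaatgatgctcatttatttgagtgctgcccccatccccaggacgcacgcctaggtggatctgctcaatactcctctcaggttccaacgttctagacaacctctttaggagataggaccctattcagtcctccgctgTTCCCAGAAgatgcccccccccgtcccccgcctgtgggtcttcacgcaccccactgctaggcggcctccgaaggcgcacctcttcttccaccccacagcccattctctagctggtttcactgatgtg
Psmb9 (chr17:34187301-34187580, minus strand): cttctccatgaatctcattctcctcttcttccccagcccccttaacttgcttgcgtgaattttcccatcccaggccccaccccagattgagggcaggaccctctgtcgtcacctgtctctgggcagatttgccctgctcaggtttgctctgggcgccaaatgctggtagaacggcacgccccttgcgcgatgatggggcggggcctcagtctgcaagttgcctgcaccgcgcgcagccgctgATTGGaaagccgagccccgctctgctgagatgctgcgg
Psme1 (chr14:55578244-55578523, plus strand): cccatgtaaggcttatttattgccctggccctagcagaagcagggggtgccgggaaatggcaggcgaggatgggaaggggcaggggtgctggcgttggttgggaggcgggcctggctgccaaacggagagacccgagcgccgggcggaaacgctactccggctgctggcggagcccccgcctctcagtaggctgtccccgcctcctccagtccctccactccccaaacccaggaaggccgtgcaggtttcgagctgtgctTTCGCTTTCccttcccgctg
Psmb6 (chr11:70525107-70525386, plus strand): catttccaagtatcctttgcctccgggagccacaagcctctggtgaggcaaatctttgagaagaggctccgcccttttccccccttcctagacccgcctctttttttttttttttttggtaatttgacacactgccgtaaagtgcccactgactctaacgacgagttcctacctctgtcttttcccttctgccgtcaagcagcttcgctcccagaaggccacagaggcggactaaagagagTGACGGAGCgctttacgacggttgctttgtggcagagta
Psmd8 (chr7:29180644-29180923, minus strand): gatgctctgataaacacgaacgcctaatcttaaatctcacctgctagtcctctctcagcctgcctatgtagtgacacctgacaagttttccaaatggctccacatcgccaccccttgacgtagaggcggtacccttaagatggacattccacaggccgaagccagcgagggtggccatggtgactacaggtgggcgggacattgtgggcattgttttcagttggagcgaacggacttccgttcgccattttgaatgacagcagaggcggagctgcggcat
Psmd11 (chr11:80428365-80428644, plus strand): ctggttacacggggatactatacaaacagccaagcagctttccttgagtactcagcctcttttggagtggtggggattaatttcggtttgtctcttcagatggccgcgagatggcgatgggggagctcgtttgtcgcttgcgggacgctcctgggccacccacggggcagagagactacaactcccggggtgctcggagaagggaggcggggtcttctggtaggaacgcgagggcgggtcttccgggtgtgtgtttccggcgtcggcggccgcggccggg
Psmd12 (chr11:107479278-107479557, plus strand): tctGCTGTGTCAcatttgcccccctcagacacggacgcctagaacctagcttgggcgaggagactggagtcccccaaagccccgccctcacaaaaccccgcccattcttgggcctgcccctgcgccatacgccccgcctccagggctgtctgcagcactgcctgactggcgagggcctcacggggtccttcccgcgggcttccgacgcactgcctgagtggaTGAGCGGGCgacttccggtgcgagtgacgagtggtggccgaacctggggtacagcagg

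In these windows Psmb8 held a Stat site at positions -97 to -89 from the start, and Psme1 an interferon-stimulated response element at positions 10 to 18. Psmb9 held a CCAAT box at -8 to -4 and none of the other motifs. Psmb6 held an antioxidant response element core at -9 to -1, Psmd12 held 2 (from -247 and from -28), and Psmd8 and Psmd11 held none of the 4 motifs, which says only that these letters are not in these windows. Of the 43 genes, 37 matched a window by gene identifier, and the whole window of 300 bases was searched for each. The antioxidant response element core stood in 15 of these 37 genes (40.5%), against 30.8% of 27025 genes with a window; it was in 11 of 23 core and 19S genes and in 0 of the 5 immunoproteasome and PA28 genes. GAAANNGAA stood in 6 of 37 (16.2%, against 9.76%), TTCNNNGAA in 3 (8.11%, against 9.55%) and CCAAT in 13 (35.1%, against 41.1%). A match is a description of letters and was not tested as a site.

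By role, the probes that passed were 16 for 12 genes of the 20S core, 7 for 6 ATPases and 15 for 10 non-ATPase subunits of the 19S particle, 7 for the 5 immunoproteasome and PA28 genes, 3 for the activators Psme3 and Psme4, 10 for 6 assembly chaperones, and 3 for Psmc3ip and Psme3ip1. The last pair share the symbol pattern but are no subunits: Psmc3ip encodes a factor of meiotic recombination, and Psme3ip1 a protein that binds Psme3, the nuclear activator PA28 gamma. The only probes of Psma1 and Psma6 were detected on 0 and 1 of 31 arrays and gave no value, and a further probe each of Psma3, Psmb2, Psmd11 and Psmd5 was detected on at most 1. Of the 61 probes, 57 were detected on all 31 arrays. The median SD within groups was 0.149 on the log2 scale for member probes and 0.196 over all probes kept, which were not matched for level. Among members the lowest was 0.0698, for Psmc2, and the highest 0.399, for Psmd6. Where a gene had several probes, its value is that of the probe with the highest mean level, called the brighter probe, unless another is named. Levels are given as log2 intensity after background correction and quantile normalization, and levels of different probes are not compared.

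**Figure D1:**
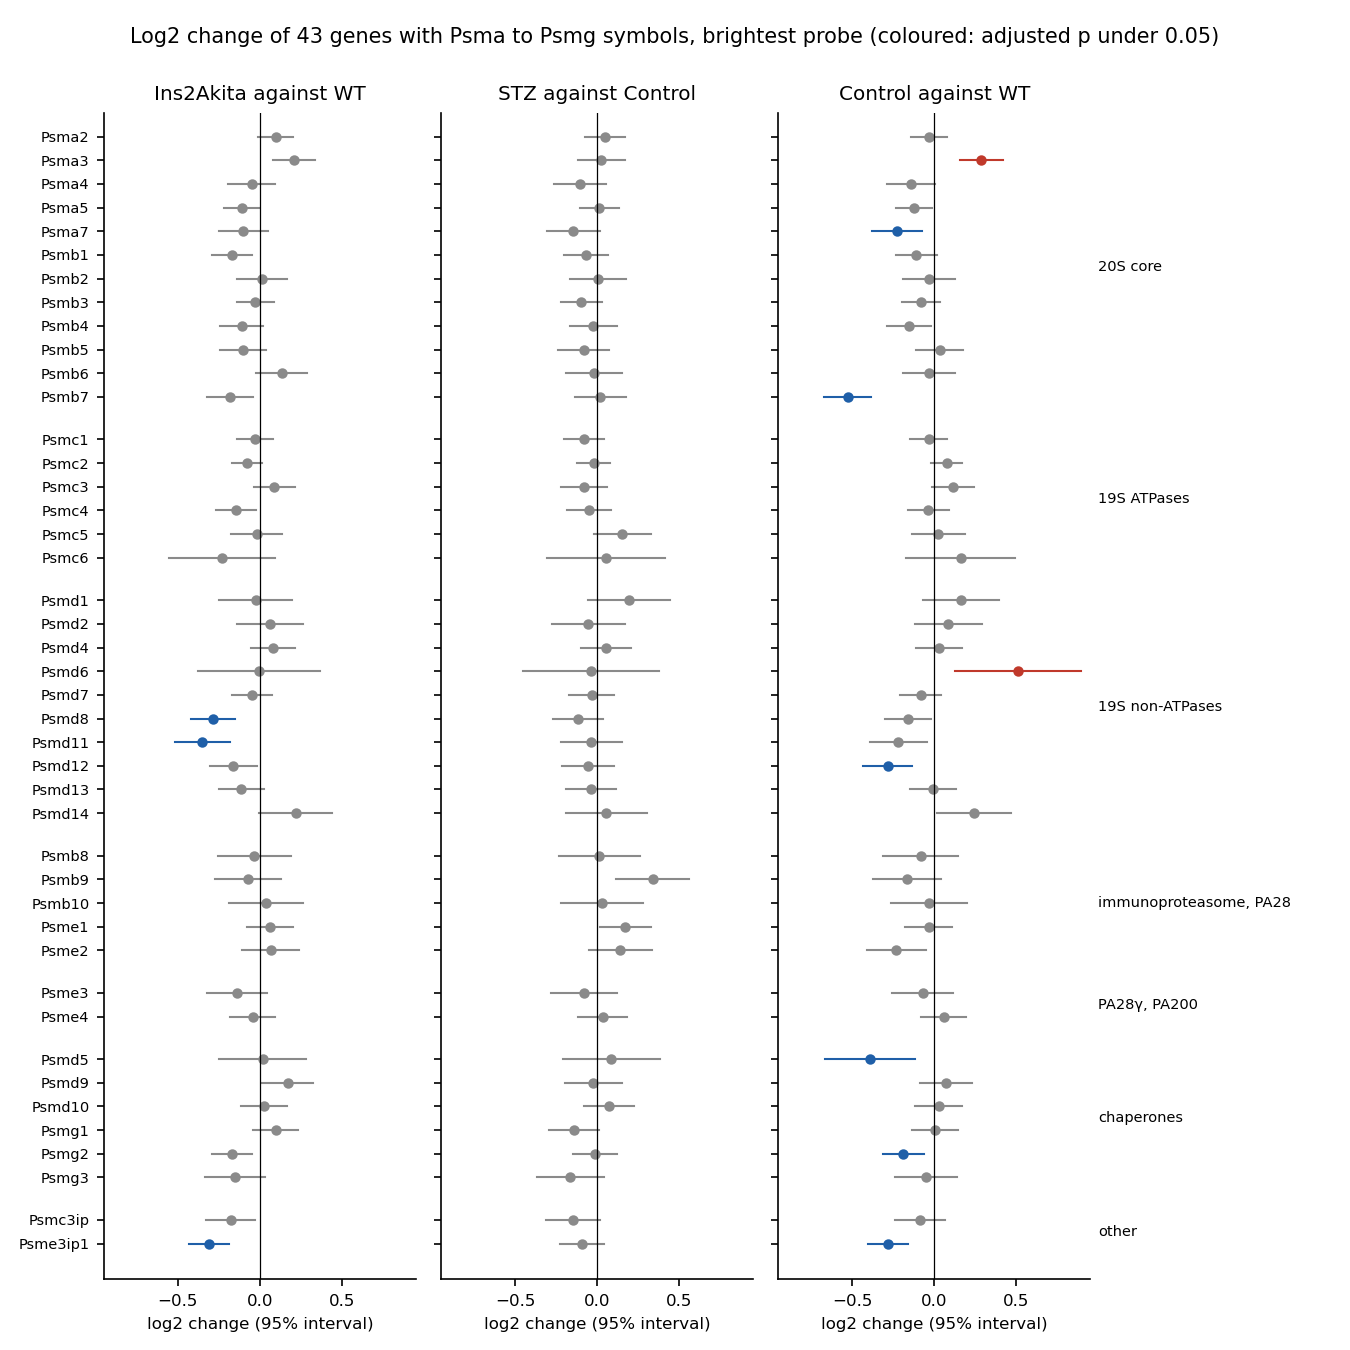
Log2 change with its 95% interval for each of the 43 genes, by brightest probe and ordered by role, in Ins2Akita against WT, STZ against Control and Control against WT; blue and red mark genes lower and higher at an adjusted p under 0.05 in limma. Blue points are Psmd8, Psmd11 and Psme3ip1 in Ins2Akita, no point is coloured in STZ, and Control against WT has 2 red and 6 blue points.

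The first comparison asked how Ins2Akita retina differed from WT retina. A pair of lid subunits of the 19S particle, Psmd8 and Psmd11, and the Psme3 partner Psme3ip1 fell, to between 0.784 and 0.820 of the WT level, and no proteasome gene rose in the fit reported. The catalytic core, its immune counterparts and the 19S ATPases had no called member. In all, 4 of 61 probes (6.56%) passed, 0 higher and 4 lower, against 4.16% of all 16743 probes, a share near the background. At an unadjusted p under 0.05 there were 16 probes (26.2%), against 19.2% of all probes. The median change over the 43 genes was -0.05, with 28 below 0, beside 0.00 over all 11172 genes, 49.9% of them below 0. Psmd8, Psmd11 and Psme3ip1 were also lower in the non-diabetic Control group than in WT, by brightest probe. Those changes were -0.16, -0.22 and -0.28, and only that of Psme3ip1 passed in the fit reported. Under median scaling Psmd8 and Psmd11 passed there too (limma, adjusted p = 0.0373 and 0.0121). The dimmer Psmd11 probe went the other way between Control and WT, at 0.08.

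Psmd8 encodes a lid subunit of the 19S particle needed to build it. Its log2 intensity was 10.68 to 11.02 (median 10.89) in WT and 10.45 to 10.75 (median 10.54) in Ins2Akita, beside 10.41 to 10.94 (median 10.74) in Control and 10.33 to 10.76 (median 10.58) in STZ. All 9 Ins2Akita arrays lay below the WT median and 7 below every WT array, and the groups overlapped through the other 2. The change was -0.29 (SE 0.0667, 0.82 of WT, adjusted p = 0.0125, n = 9 and 8, limma). In STZ against Control it was -0.12 (95% interval -0.27 to 0.03), which did not pass (adjusted p = 0.701).

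Psmd11, a scaffold of the lid whose overexpression is known to raise proteasome assembly, had 2 kept probes. The brighter read 8.44 to 8.85 (median 8.62) in WT and 7.93 to 8.76 (median 8.26) in Ins2Akita, with 8.27 to 8.64 (median 8.40) in Control and 8.28 to 8.58 (median 8.35) in STZ. Of the 9 Ins2Akita arrays 8 lay below all WT arrays, and replicate 9, the array on the STZ BeadChip, was the exception as the highest of its group. The change was -0.35 (SE 0.0822, adjusted p = 0.0132). The call was lost with WT and Ins2Akita alone in the fit (adjusted p = 0.0529) and when BeadChip entered as a random block (0.051). The dimmer probe gave -0.19 (adjusted p = 0.239), with 8.10 to 8.85 (median 8.45) in WT and 8.00 to 8.53 (median 8.22) in Ins2Akita. By an exact permutation test of the difference between the probes, the changes of the 2 probes were not shown to differ (adjusted p = 0.39).

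Psme3ip1 had the smallest p among the members in this comparison. On its brighter probe WT ran at 9.43 to 9.69 (median 9.55) and Ins2Akita at 9.11 to 9.42 (median 9.27), Control at 9.13 to 9.54 (median 9.27) and STZ at 9.11 to 9.40 (median 9.15). Every Ins2Akita array lay below every WT array, as on no other member probe in this comparison. How many probes of the whole array separated these groups was not counted. The change was -0.31 (SE 0.0588, 0.807 of WT, adjusted p = 0.00368). Its dimmer probe, at 9.04 to 9.46 (median 9.32) in WT and 8.90 to 9.14 (median 9.05) in Ins2Akita, fell by 0.25 (SE 0.0611, adjusted p = 0.0158), so both probes passed; the dimmer one did not when BeadChip entered as a random block (0.0538). Psme3, whose product it binds, was at -0.14 (95% interval -0.32 to 0.04, adjusted p = 0.405). In STZ against Control the brighter and dimmer probes of Psme3ip1 gave -0.09 and -0.20, and neither passed (adjusted p = 0.755 and 0.307).

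**Figure D2:**
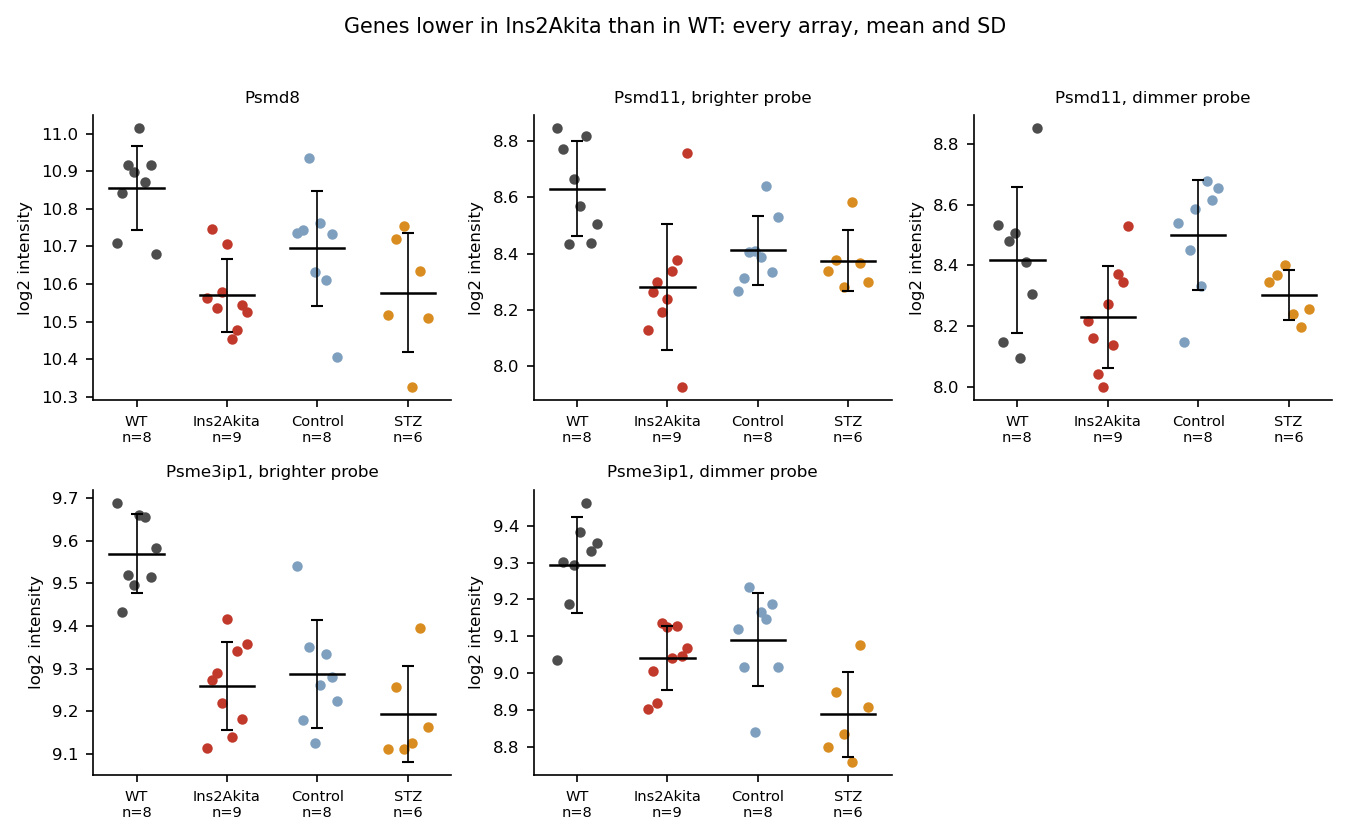
Log2 intensity of Psmd8 and of both probes of Psmd11 and Psme3ip1 on each of the 31 arrays by group, with bars for the mean and SD. WT sits highest on Psmd8 and on both probes of Psme3ip1, and Ins2Akita replicate 9 is the high point of its group on the brighter Psmd11 probe.

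Just outside the threshold lay a gene of the alpha ring, Psma3, which went the other way. It read 12.29 to 12.58 (median 12.45) in WT and 12.39 to 12.89 (median 12.58) in Ins2Akita, a change of 0.21 (SE 0.0631, adjusted p = 0.0574). It passed as higher with an offset of 50 (adjusted p = 0.0412), with no filter (0.0489), with probes detected on all arrays (0.0483) and on the authors' values without background subtraction (0.0101). Psmd7, a lid subunit that pairs with the deubiquitinase Psmd14, gave 0.25 on its dimmer probe (adjusted p = 0.0589) and -0.05 on the brighter (adjusted p = 0.719). On the dimmer probe all 9 Ins2Akita arrays lay above the WT median. The brighter probe, in contrast, had 8 of 9 below it. The 2 probes differed in their change (exact permutation test, adjusted p = 0.00823, n = 9 and 8), so no direction for Psmd7 is given. The dimmer probe passed as higher with an offset of 50 (limma, adjusted p = 0.0462), with probes detected on all arrays (0.0489), on the values without background subtraction (0.0109) and with the replicate block (0.0323).

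The catalytic core genes did not pass in Ins2Akita. Psmb5 (chymotrypsin-like site) read 9.30 to 9.995 (median 9.63) in WT and 9.44 to 9.70 (median 9.47) in Ins2Akita, Psmb6 (caspase-like site) 11.14 to 11.73 (median 11.36) and 11.36 to 11.67 (median 11.53), and the brightest probe of Psmb7 (trypsin-like site) 11.39 to 11.87 (median 11.64) and 11.25 to 11.52 (median 11.46). These groups overlapped on all 3 probes. The changes were -0.10, 0.13 and -0.18, with adjusted p of 0.424, 0.351 and 0.124. The second Psmb7 probe gave 0.17 and the dimmest -0.08; the brightest and second differed in their change (exact permutation test, adjusted p = 0.00905), so no direction for Psmb7 is given. Over the 12 core genes 8 were below 0 with a median of -0.08, over the 6 ATPases 5 with a median of -0.05, and over the 10 non-ATPases 7 with a median of -0.04. The 95% intervals of the 28 core and 19S genes reached from -0.55 (Psmc6) to 0.44 (Psmd14). Of the 6 assembly chaperones, which build the rings and the 19S base, 0 passed by limma and 2 had an unadjusted p under 0.05; the smallest adjusted p, 0.0955, was that of Psmg2 (-0.17).

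The immune genes showed no called change in Ins2Akita. The dim Psmb8 probe, detected on 4 of 8 WT and 5 of 9 Ins2Akita arrays, read 4.53 to 5.38 (median 4.98) and 4.58 to 5.32 (median 5.00). Psmb9 read 5.85 to 6.32 (median 6.14) and 5.71 to 6.59 (median 6.07), Psmb10 7.24 to 7.96 (median 7.72) and 7.47 to 8.02 (median 7.75), Psme1 9.05 to 9.60 (median 9.28) and 9.08 to 9.47 (median 9.35), and Psme2 6.56 to 7.18 (median 6.92) and 6.72 to 7.13 (median 6.98). The groups overlapped for each gene. Changes by brightest probe ran from -0.07 (Psmb9) to 0.07 (Psme2), with intervals between -0.27 and 0.26 and adjusted p of at least 0.68. The signs of Psmb8, Psmb10 and Psme2 turned under some alternatives. The dimmer probes of Psmb10 and Psme1 gave -0.11 and -0.09, opposite in sign to the brighter (0.04 and 0.06), and did not pass. Only on the authors' values without background subtraction did 1 of the immune genes pass, Psmb8 at -0.22 (adjusted p = 0.0313). In that setting 23.6% of all probes passed. The split over members was then 2 higher and 9 lower. In that setting the median change over all probes was -0.0860, against -0.000922 in the fit reported.

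Few genes on the lists around the proteasome passed in Ins2Akita. Of 6 measured partners outside the symbol pattern and 9 measured genes of the Nfe2l1 route, 0 passed by limma; the chaperone of core assembly Pomp was at -0.07 (adjusted p = 0.64) and Nfe2l1 at 0.11 (0.175). Among 8 measured deubiquitinases and shuttle factors 1 passed, Uchl1, a ubiquitin hydrolase of neurons, which fell by 0.23 (SE 0.0689, adjusted p = 0.0499). None of 5 measured ubiquitin and conjugation genes or 9 antigen processing genes passed, among them B2m, the light chain of MHC class I, at 0.39 (SE 0.204, adjusted p = 0.299). Of 14 interferon response genes 0 passed by limma, with 11 above 0 and a median of 0.13. Lens crystallins had a median of -1.65, microglia and macrophage markers (8 of 12 measured) of -0.04 and pigment epithelium markers of 0.89 in this comparison, with 0 called in these lists. Blood and leukocyte markers (5 of 11 measured) had a median of -0.44 with all 5 below 0 and 2 called lower, S100a8 and S100a9; their part in the result was not tested. With the lens and pigment epithelium scores as covariates, all 4 called probes still passed.

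The second comparison asked how STZ retina differed from Control retina. No proteasome gene passed. The immunoproteasome gene Psmb9 was the member with the smallest p. All 5 immunoproteasome and PA28 genes had positive estimates by brightest probe. Those of Psmb8 and Psmb10 turned negative when single arrays were left out. The Psmb8 estimate also did so on the authors' values without background subtraction. Of 14 measured interferon response genes 4 passed as higher. Whether the changes of these gene lists between the groups are linked was not tested. By limma 0 of 61 probes passed, and 3 (4.92%) reached an unadjusted p under 0.05; over the array 6 of 16743 probes (0.0358%) passed and 8.55% had an unadjusted p under 0.05. The median over the 43 genes was -0.02, beside 0.00 over all genes.

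Psmb9, the immune replacement of Psmb6, read 5.55 to 6.23 (median 5.96) in Control and 6.06 to 6.41 (median 6.33) in STZ. All 6 STZ arrays lay above the Control median and 4 above every Control array, and the medians of WT and Ins2Akita lay in between. The change was 0.34 (SE 0.11, 1.26-fold, 95% interval 0.11 to 0.56) and did not pass adjustment over all probes (adjusted p = 0.289 in limma). Leaving out 1 array at a time gave 0.28 to 0.38 with adjusted p of 0.224 to 0.475. The size depended on the treatment of dim signal, since the authors' values without background subtraction gave 0.19 and an offset of 50 gave 0.22.

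Psme1, a subunit of PA28, came next. Its brighter probe read 9.08 to 9.43 (median 9.29) in Control and 9.32 to 9.50 (median 9.45) in STZ, again with all 6 STZ arrays above the Control median. The change was 0.17 (SE 0.0766, adjusted p = 0.526). The dimmer probe did not show it, with 8.43 to 8.90 (median 8.66) in Control, 8.50 to 8.89 (median 8.65) in STZ and a change of -0.00 (95% interval -0.19 to 0.19). The other PA28 gene, Psme2, read 6.26 to 6.83 (median 6.74) and 6.65 to 7.00 (median 6.78), a change of 0.14 (adjusted p = 0.726). Psmb10 read 7.31 to 8.09 (median 7.58) and 7.41 to 8.11 (median 7.66) on its brighter probe. Psmb8 read 4.54 to 5.18 (median 4.84) and 4.67 to 5.18 (median 4.93) and was detected on 3 of 8 and 3 of 6 arrays. Their changes were 0.03 and 0.01, with the groups overlapping throughout.

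The median over the 5 genes by brightest probe was 0.14; over all 7 of their probes it was 0.03, since the dimmer probes of Psme1 and Psmb10 lay just below 0. Of 14 measured interferon response genes all 14 were above 0 with a median of 0.49, and 4 rose: Oasl2 (0.78, adjusted p = 0.0141), Gbp3 (0.63, 0.0141), Trim30a (0.87, 0.048) and Rsad2 (0.73, 0.0303). With only STZ and Control in the fit, 0 of 16743 probes passed, so these 4 calls were lost. With BeadChip as a random block, 1 probe of the whole array passed. The antigen processing list did not share this, with a median of 0.00 over 9 genes and 0 called in limma; within it B2m was at 0.44 (SE 0.226, adjusted p = 0.605). The probe of Tap1, the peptide transporter gene, was detected on 0 arrays. Microglia and macrophage markers had a median of -0.01 in STZ against Control, with 0 called.

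**Figure D3:**
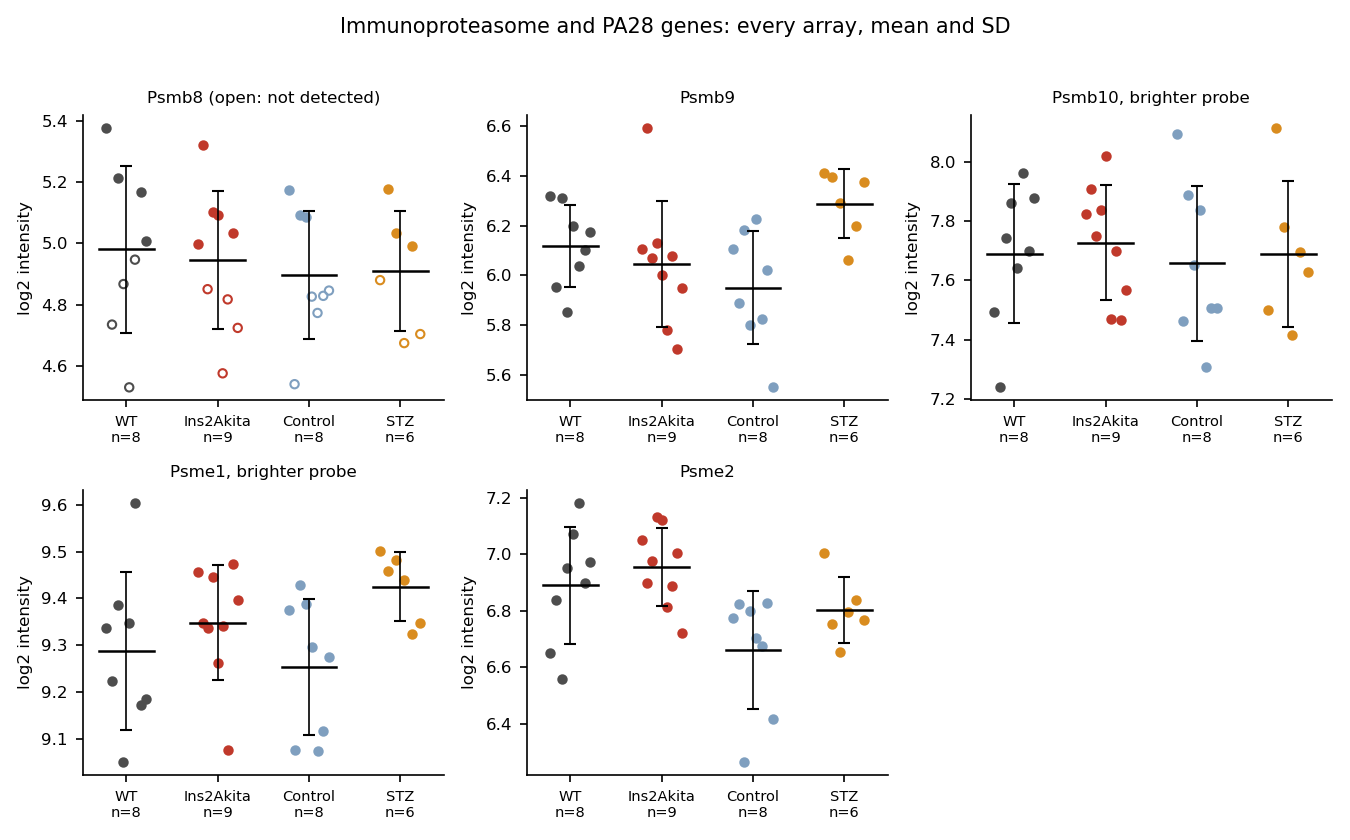
Log2 intensity of the 5 immunoproteasome and PA28 genes by brightest probe on each of the 31 arrays, with bars for the mean and SD; open circles are arrays on which the probe was not detected. The STZ arrays of Psmb9 sit between 6.06 and 6.41 and the Control arrays between 5.55 and 6.23.

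Of the 28 core and 19S genes, by brightest probe, 0 passed and 0 reached an unadjusted p under 0.05 by limma in STZ against Control, beside 8.55% of all probes. Among them 18 were below 0, the median was -0.03, and the changes ran from -0.14 (Psma7) to 0.19 (Psmd1). Psmb5, Psmb6 and the brightest Psmb7 probe gave -0.08, -0.02 and 0.02. The other Psmb7 probes gave -0.15 and -0.16 (adjusted p = 0.768 and 0.597), with 6 and 5 of 6 STZ arrays below the Control median. Their STZ arrays read 9.52 to 9.65 (median 9.57) for Psmb5 against 9.51 to 9.76 (median 9.67) in Control, 11.12 to 11.47 (median 11.38) for Psmb6 against 11.17 to 11.62 (median 11.34), and 10.97 to 11.19 (median 11.12) for Psmb7 against 10.75 to 11.29 (median 11.18), with overlap each time. The assembly chaperone Psmg1 was the third gene by p; it read 7.94 to 8.17 (median 8.05) in Control and 7.75 to 8.13 (median 7.87) in STZ, a change of -0.14 (SE 0.0744, adjusted p = 0.613). Psmd8 and Psmd11, which fell in Ins2Akita, were at -0.12 and -0.04. Lens crystallins had a median of 1.43 and pigment epithelium markers of 0.06 in this comparison, and all 5 blood and leukocyte markers were below 0 with a median of -0.25, with 0 called in these lists; their part in the result was not tested beyond the fit with the lens and pigment epithelium scores as covariates, where Psmb9 was at 0.33 (adjusted p = 0.44).

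The test of whether the diabetes effects differed between the models gave no called member. By limma 0 of 61 probes passed, and 6 (9.84%) reached an unadjusted p under 0.05. Over the array 0.0179% were called (3 of 16743) and 8.65% reached an unadjusted p under 0.05, a share near that of the members. The smallest p among the genes were those of Psmb9, with an effect in Ins2Akita lower than in STZ by a difference of -0.41 (95% interval -0.71 to -0.11, adjusted p = 0.375), Psmd11 (-0.31, 0.427) and Psme3ip1 (-0.22, 0.454). The calls of Psmd8, Psmd11 and Psme3ip1 in Ins2Akita are therefore not shown to be particular to that model.

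The non-diabetic groups, Control and WT, were also set against each other. Over the array 3723 probes passed here, against 696 in Ins2Akita and 6 in STZ, and the comparison shares its WT and Control arrays with those above. The labels give WT by genotype and Control by treatment, and since WT and Control were on different BeadChips, BeadChip and group cannot be told apart. Here 12 of 61 probes (19.7%) passed, 2 higher and 10 lower in Control, against 22.2% of all probes, a share near the background. With median scaling in place of quantile normalization the split was 0 higher and 19 lower, and the median over the 43 genes moved from -0.03 to -0.12, while that over all probes moved by -0.05. Some member probes below had no overlap between Control and WT, and how many probes of the whole array had none was not counted.

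The alpha ring gene Psma3 rose, reading 12.29 to 12.58 (median 12.45) in WT and 12.57 to 12.92 (median 12.69) in Control (0.29, SE 0.0649, adjusted p = 0.00186). Of the 8 Control arrays 7 lay above every WT array. Under median scaling the value was 0.18 and did not pass (adjusted p = 0.0902). Psma7, also of the alpha ring, fell on both probes: the dimmer read 10.25 to 10.75 (median 10.41) in WT and 9.92 to 10.24 (median 10.12) in Control without overlap (-0.35, adjusted p = 0.000248), and the brighter 10.36 to 10.86 (median 10.56) and 10.18 to 10.60 (median 10.26) (-0.23, 0.0253). The call of the brighter probe was lost without WT replicate 6, Control replicate 5 or Control replicate 7, with only WT and Control in the fit (adjusted p = 0.0596) and with BeadChip as a random block (0.0586).

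Psmb7 had the second-smallest p of all member probes here on its brightest probe. WT arrays read 11.39 to 11.87 (median 11.64) and Control arrays 10.75 to 11.29 (median 11.18), with no overlap, a change of -0.53 (SE 0.0708, adjusted p = 3.04e-06). The other probes did not follow. The second read 10.49 to 11.24 (median 11.00) and 10.45 to 11.18 (median 10.88) (-0.09, adjusted p = 0.569) and the dimmest 9.47 to 10.01 (median 9.66) and 9.49 to 10.13 (median 9.69) (0.05, 0.705). Exact permutation tests found the brightest probe to differ in its change from the second (adjusted p = 0.00905, n = 8 and 8) and from the dimmest (0.00823), so no direction is given for the gene.

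Psme4 encodes PA200, an activator of the core known from sperm and from the handling of histones. Its dimmer probe gave the largest change of any member probe in the 4 comparisons. It read 5.93 to 7.00 (median 6.50) in WT, 6.04 to 7.00 (median 6.74) in Ins2Akita, 4.62 to 5.53 (median 5.20) in Control and 4.67 to 5.76 (median 5.37) in STZ, and was detected on 8 of 8, 9 of 9, 6 of 8 and 5 of 6 arrays. All 17 WT and Ins2Akita arrays were at or above 5.93 and all 14 Control and STZ arrays at or below 5.76. Control against WT was -1.30 (SE 0.169, adjusted p = 1.79e-06), or -0.76 on the authors' values without background subtraction and -0.81 with an offset of 50. Its brighter probe read 9.80 to 10.48 (median 10.33), 10.12 to 10.34 (median 10.22), 10.13 to 10.45 (median 10.35) and 10.30 to 10.55 (median 10.33) in the same order of groups, a change of 0.06 (95% interval -0.08 to 0.20). The probes differed in their change (exact permutation test, adjusted p = 0.00823; the raw p of 0.000155 is the smallest that 8 against 8 arrays allow). Where on the transcript each probe lies was not analysed here.

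**Figure D4:**
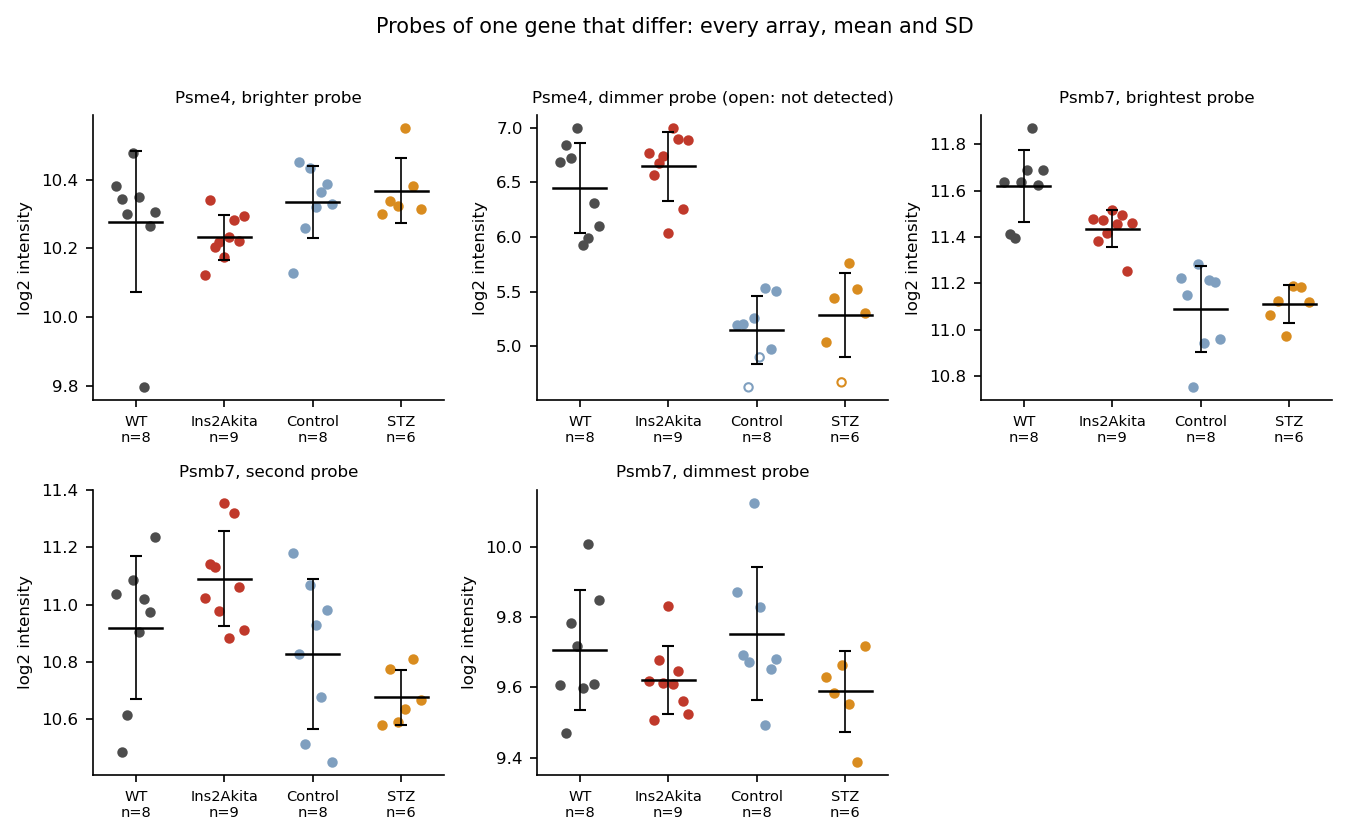
Log2 intensity on each of the 31 arrays for the 2 probes of Psme4 and the 3 probes of Psmb7, with bars for the mean and SD; open circles are arrays on which the probe was not detected. On the dimmer Psme4 probe the WT and Ins2Akita arrays sit at 5.93 or above and the Control and STZ arrays at 5.76 or below, while the brighter probe overlaps in all groups.

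Among the 19S genes Psmd12, a lid subunit, was called lower on its brighter probe only. That probe read 9.84 to 10.21 (median 9.98) in WT and 9.42 to 10.03 (median 9.76) in Control (-0.28, adjusted p = 0.00471). Its dimmer probe read 8.45 to 9.16 (median 8.89) and 8.84 to 9.30 (median 9.02) and gave 0.21 (0.19). The probes differed by exact permutation (adjusted p = 0.0173, n = 8 and 8), so no direction for Psmd12 is given. Psmd6, another lid subunit and the most variable member, read 7.46 to 8.77 (median 8.16) in WT and 8.16 to 9.30 (median 8.60) in Control (0.51, SE 0.188, adjusted p = 0.0492), with wide overlap. The call was lost when any of 20 of the 31 arrays was left out, at adjusted p of up to 0.117. Median scaling, values without background subtraction, no filter and BeadChip as a random block each lost the Psmd6 call too. The dimmer Psmd6 probe, at 6.76 to 7.93 (median 7.26) and 7.27 to 8.15 (median 7.61), gave 0.36 (adjusted p = 0.113).

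Among the assembly chaperones of the 19S base and of the core 3 of 10 probes passed, beside 22.2% of all probes. All 3 calls were lost with only WT and Control in the fit (adjusted p = 0.0903 for Psmd5, 0.0763 for Psmg2 and 0.0662 for Psmd10) and with BeadChip as a random block (0.0729, 0.0562 and 0.0587). Psmd5 fell and read 6.58 to 7.64 (median 7.32) in WT and 6.39 to 7.60 (median 6.80) in Control (-0.39, adjusted p = 0.0334), with overlap and with the call lost without any of 8 single arrays. On the authors' values without background subtraction the Psmd5 call was lost as well. Psmg2 fell on its brighter probe, which read 9.69 to 10.04 (median 9.82) and 9.49 to 9.96 (median 9.63) (-0.19, 0.024) and was at -0.24 on the dimmer (0.0993); the call was lost without WT replicate 1 or Control replicate 2. For Psmd10, known as gankyrin, only the dimmest of 3 probes passed, with 7.65 to 8.02 (median 7.73) in WT and 7.01 to 7.85 (median 7.49) in Control (-0.30, 0.0253). The other 2 gave -0.10 and 0.03, the dimmest differed from the brightest by exact permutation (adjusted p = 0.0268, n = 8 and 8), and its call was lost without WT replicate 6, Control replicate 3 or Control replicate 5. Array weights lost the Psmd10 call as well. Psme3ip1 was lower in Control on both probes (-0.28, 0.0011 and -0.20, 0.0198), the dimmer call being lost without Control replicate 4 and with only WT and Control in the fit (0.0582).

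No immunoproteasome or PA28 gene passed between Control and WT in the fit reported, and all 7 of their probes were below 0. The nearest were the dimmer Psme1 probe (-0.22, adjusted p = 0.0541) and Psme2 (-0.23, 0.0563). Both passed as lower under median scaling (limma, adjusted p = 0.0159 and 0.0161) and with probes detected on all arrays (0.0475 and 0.0494). The Psme1 probe also passed with an offset of 50 (0.0463), array weights (0.0312) and the marker covariates (0.0371). Psme2 also passed with the replicate block (0.042). Psmb5 and Psmb6 were at 0.03 and -0.03. Beside the subunits, Nfe2l1 was higher in Control (0.16, SE 0.0494, adjusted p = 0.0179), as were its partner Mafg (0.29, 0.0498) and Ecpas, a scaffold that binds the proteasome (0.47, 0.000327), while the ubiquitin-conjugating enzymes Ube2d2a and Ube2k were lower (-0.40 and -0.27, adjusted p = 4.49e-05 and 0.00858). Pomp was at -0.17 (0.097), the peptide transporter Tap2 was higher (0.36, 0.00539), and of the 14 interferon response genes 1 was higher, Bst2 (0.42, 0.0235). Of the 9 genes of the Nfe2l1 route 2 passed, of 6 partners 1, of 5 ubiquitin genes 2, of 9 antigen processing genes 1, and of 8 deubiquitinases and shuttles 0 by limma, beside 22.2% of all probes. Lens crystallins had a median of -0.99 and pigment epithelium markers of 0.17, with 0 called and 1 called higher (Rlbp1). Microglia and macrophage markers had a median of -0.14 with 0 called, and blood and leukocyte markers one of 0.43 with 1 called lower (S100a8).

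Agreement between probes of one gene was examined for all 16 genes with more than 1 kept probe, as 20 pairs in the first 3 comparisons, after the values had been seen. Of 60 exact permutation tests 8 passed, adjusted over the 60: 3 in Ins2Akita against WT, 5 in Control against WT and 0 in STZ against Control. The genes were Psmb7, Psmd6, Psmd7, Psmd10, Psmd12 and Psme4. After removal of the group means, deviations of paired probes correlated with a median r of 0.466 over 31 arrays, from -0.31 for Psmd12 to 0.92 for Psmd6. A pair of probes that track each other, as in Psmd6, and a pair that do not, as in Psmd12 and Psmc5 (-0.16), thus both occur among subunit genes.

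Subunit genes covaried weakly over the arrays. After removal of group means, 378 pairs of the 28 core and 19S genes had a median r of 0.102, against 0.0061 over all gene pairs. Pairs within the 20S core had a median of 0.237 (66 pairs) and pairs within the 19S particle one of -0.02 (120 pairs). Psmb6 and Psmb3 followed the mean of the other subunits most closely (0.672 and 0.627), and Psmd6 least (-0.13). One array stood apart: WT replicate 6 had the highest mean of the subunits, 0.191 above their average over all arrays on the log2 scale against -0.08 to 0.09 on the others, and the fewest detected probes (14581). Without it the medians were 0.0422, 0.117 and -0.03 for all, core and 19S pairs. The genes outside the pattern most like the subunit mean over the 31 arrays were Smim26 (r = 0.868), Dctpp1 (0.861), Med31 (0.830), Nme5 (0.827) and Serf2 (0.807), as a description with no test, since all arrays share their normalization. Without WT replicate 6 the values were 0.801, 0.826, 0.749, 0.790 and 0.767, and Dctpp1 ranked 1, Smim26 3 and Med31 7.

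The immune genes were finally set against marker scores within groups, a test added after the data were seen. Over 31 arrays and with group means removed, 24 relations were tested by permutation within groups (100000 resamples, two-sided), those of the 5 immune genes and of Psmb5, Psmb6 and Psmb7 with the mean of the interferon, the microglia and macrophage, and the antigen processing genes. One passed by Pearson's r, that of Psme1 with the microglia and macrophage score (r = 0.575, adjusted p = 0.0187; Spearman's rho = 0.594, adjusted p = 0.0151; raw p = 0.00078 and 0.00063). Without the 2 arrays farthest in the score r was 0.486, and within WT, Ins2Akita, Control and STZ it was 0.85, 0.22, 0.63 and 0.61. Dimmer probes were not among the relations tested. That of Psme1 gave r = 0.510 with the antigen processing score and 0.272 with the microglia and macrophage score. That of Psmb10 gave r = 0.561 with the microglia and macrophage score, against 0.264 on the brighter Psmb10 probe. Psme2 with the same score had r = 0.478 (adjusted p = 0.0654) and rho = 0.548 (adjusted p = 0.0353), and r = 0.335 without the 2 farthest arrays.

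Psmb9 with the interferon score gave r = 0.387 (adjusted p = 0.0972, permutation) and rho = 0.416 (0.139), with r = 0.512 without the 2 farthest arrays. Psmb8 with it gave r = 0.433 (0.0972) and rho = 0.436 (0.138). Neither passed. The constitutive Psmb5 had r = 0.512 with the microglia and macrophage score (adjusted p = 0.0647, permutation) and Psmb6 r = 0.438 (0.0972), so neither constitutive gene passed, and WT replicate 6 had the highest value of that score in its group, as it had for the subunits.

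**Figure D5:**
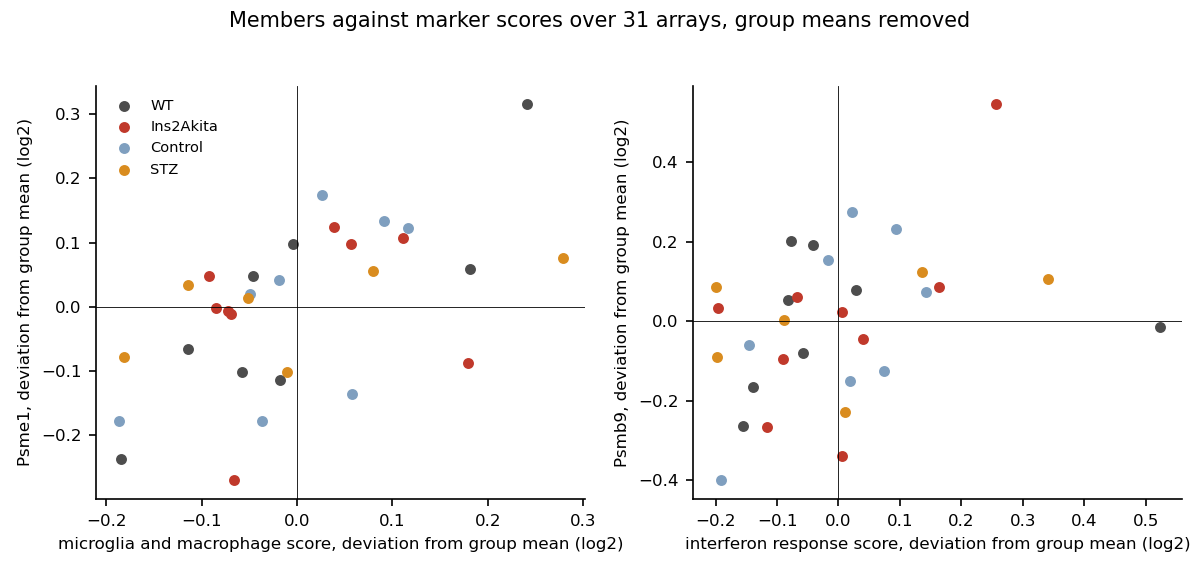
Deviation from the group mean on the log2 scale of Psme1 against the microglia and macrophage score and of Psmb9 against the interferon response score, one point per array (31 arrays, coloured by group). The Psme1 points rise from lower left to upper right (r = 0.575), and the Psmb9 points scatter more widely (r = 0.387).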

How the data were processed

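Total RNA of whole mouse retina was amplified to biotinylated cRNA and hybridised to single-colour Illumina BeadChips, per the labels' protocols. BeadStudio is named in the submitters' processing notes; its version was not given in the sources used here, nor were its settings. The intensity values analysed were deposited by the authors as not normalized; the values themselves show background subtraction (lowest -22.8) and a common mean of 352 per array. A further deposited table of intensity values, linear, not centred and without values below 0, had a mean of 404 and array medians of 74.0 to 95.8. It served as an alternative and is called the authors' values without background subtraction. How its background was treated was not checked beyond the lack of values below 0. The detection p-value of each probe and array was used as deposited, per the file headers.

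Background was modelled from the detection p-values with an offset of 16, followed by quantile normalization and log2, with limma 3.58.1 in R 4.3.3. Probes detected on at least 6 of 31 arrays entered 1 fit of 4 group means. Comparisons were tested by limma's moderated test with Benjamini-Hochberg adjustment over 16743 probes and a threshold of 0.05, and any adjusted p not otherwise named comes from it. Correlations, exact permutation tests and figures used Python 3.11.15, numpy 2.4.6, pandas 2.3.3, scipy 1.17.1 and matplotlib 3.10.9. The fit was tested on simulated data. Of the probes 23978 had 1 symbol, 0 had several and 1719 were not listed; probe sequences were not used here, and 0 columns belonged to other samples. Precision is limited by the number of arrays per group.

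Members and lists were chosen with earlier results of these data known. Values in every group are given for the immunoproteasome and PA28 genes and their constitutive counterparts, for members with a called probe and for the 3 member genes with the smallest p in each comparison; of the other lists, called genes and Nfe2l1, Tap1, B2m and Pomp were to be named; 1 gene of that rule is not reported here. Further values were chosen after they had been seen. Alternatives covered scaling, background, the filter on dim probes, the arrays in the fit, array weights, BeadChip, replicate number, marker covariates and each array left out in turn. The tests between probes of a gene, the relations with marker scores and the correlations without WT replicate 6 were added after the data had been seen. Psmf1, Psme2b, Psmd3, Psmg4, Psmb11 and Psma8 were not analysed here.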

Additional observations from a re-analysis of the deposited data

Results flagged for a closer look

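Among the 33 member probes given by group, 8 of 132 groups of arrays (6.06%) held 1 array whose gap to its nearest neighbour was large against the range of its group, by Dixon's test at the 95% level; chance alone singles out about 5% of groups. Psmb9 in Ins2Akita replicate 2 was the highest of its 9 arrays at 6.59, with the next at 6.13. The dimmest Psmd10 probe was lowest in Ins2Akita replicate 4 at 7.37 (next 7.69), and another Psmd10 probe was lowest in Control replicate 3 at 8.35 (next 8.70). STZ replicate 4 was highest on the brighter Psmd11 probe at 8.58 (next 8.38) and on the brighter Psme4 probe at 10.55 (next 10.38). Psmd5 was highest in Control replicate 6 at 7.60 (next 6.96), and the brighter Psmg2 probe in Control replicate 4 at 9.96 (next 9.70). WT replicate 6 was lowest on the brighter Psme4 probe at 9.80 (next 10.27).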

How the results depend on the processing

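Up to 30 single-member values were recomputed under 10 alternatives to the processing (27 of them with probes detected on all arrays and with only the groups compared) and with each array left out; 0 called values changed sign. Signs of uncalled immune genes near 0 did turn: Psmb10 in Ins2Akita to -0.00371 under median scaling and, on the values without background subtraction, Psmb10 and Psme2 in Ins2Akita to -0.0225 and -0.0253 and Psmb8 in STZ to -0.0417. With single arrays left out, Psmb10 ran from -0.0271 to 0.0763 in Ins2Akita and from -0.0533 to 0.0939 in STZ, and Psmb8 from -0.10 to 0.0223 in Ins2Akita and from -0.0400 to 0.0603 in STZ. Under median scaling Control against WT had 19 called member probes (12 otherwise) and a gene median of -0.12 in place of -0.03. On the authors' values without background subtraction Ins2Akita against WT had 11 called probes and 8 genes, against 4 and 3. The share over all probes was 23.6% there, against 4.16% in the fit reported. With only the groups compared in the fit, Control against WT had 5 called genes in place of 8, with 18.3% of all probes called. With BeadChip as a random block the called probes were 2 in Ins2Akita (1.36% of all probes) and 7 in Control against WT (15.6%), the latter from 4 genes. This fit cannot remove a BeadChip difference between groups, because BeadChip and group coincided apart from Ins2Akita replicate 9. Leaving out single arrays gave 4 to 6 probes in Ins2Akita, 0 in STZ, and 8 to 15 probes from 5 to 9 genes in Control against WT, the lowest count of genes without Control replicate 5. The shares over all probes were not recorded for these fits. Replicate number was the position on the BeadChip for 30 of 31 arrays. Same-numbered arrays correlated at -0.26 to 0.33 for WT and Ins2Akita, -0.15 to 0.42 for Control and STZ and -0.21 to 0.48 for WT and Control, with 3 of 8, 1 of 6 and 4 of 8 pairs above 0.1, so the numbers were not taken to pair the arrays. With the replicate block 5, 0 and 15 member probes passed in Ins2Akita, STZ and Control against WT, and all 30 named values kept their call. Of all probes 5.06%, 0.102% and 23.2% passed in that fit. Dim probes such as Psmb8 lie near background, where log2 changes depend on the offset.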
